A study of Oryza sativa Japonica Group with 8 samples.

Results

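JAZ proteins are the repressors of jasmonate signalling, and 8 rice genes for them were followed in leaves over 3 days without water. The members were taken by gene identifier from genes that the deposited annotation describes as Tify domain or ZIM motif proteins, and they are 8 of 27626 genes present in both deposited tables. Leaves came from 5-week-old japonica rice of the Ilmi variety, grown in soil with 3 plants to a pot. Some plants stayed well watered, and the others were sampled on day 1, 2 or 3 of drought, with the soil set to about 75% water when watering stopped. From each treatment came 1 library of total RNA and 1 of mRNA, 8 in all. Whether both came from the same RNA, and how many plants gave each library, is not stated in the labels.

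Jasmonates are fatty acid-derived hormones of wounding, defence and stress. In the absence of the hormone, JAZ proteins bind MYC-type transcription factors and recruit corepressors through their TIFY motif. Jasmonoyl-isoleucine joins the receptor F-box protein COI1 to the Jas motif of a JAZ protein, which is then degraded, and the freed MYC factors also switch on JAZ genes, so that JAZ transcripts are widely used as a readout of the pathway.

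By names recalled from general knowledge, the members are JAZ9 (Os03g0180800), JAZ11 (Os03g0180900), JAZ10 (Os03g0181100) and JAZ12 (Os10g0392400) of the TIFY11 type, JAZ6 (Os03g0402800), JAZ7 (Os07g0615200) and JAZ8 (Os09g0439200) of the TIFY10 type, and JAZ3 (Os08g0428400) of the TIFY6 type. The files do not pair these identifiers with symbols. A RefSeq table of another assembly matched none of the 8 identifiers. Looked up by the recalled symbols, it lists a second numbering, with OsJAZ2 beside JAZ11 and OsJAZ1 beside JAZ12, so the identifiers decide. In the coordinates of the IRGSP-1.0 build, JAZ9 lies at chr3:4232004-4233038, JAZ11 at chr3:4236724-4238058, JAZ10 at chr3:4248884-4249820 and JAZ6 at chr3:16407695-16410007. JAZ7 lies at chr7:25348060-25350242, JAZ3 at chr8:20624908-20627940, JAZ8 at chr9:16273522-16275268 and JAZ12 at chr10:13069770-13070894. All are protein-coding.

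Values are FPKM (fragment counts divided by transcript length and by the library's mapped fragments), summed over the transcripts of a gene. A gene was called higher or lower on a drought day when the log2 ratio of FPKM + 1 over the well-watered library reached 1, or -1 for lower, in total RNA and in mRNA alike. The added 1 makes the ratio of a low gene smaller than its plain fold. With 1 library per group there is no test, no p-value and no error between plants. Ranges given with FPKM values are 95% exact Poisson limits for counting error only, and they assume that the smallest common step of FPKM times length stands for 1 fragment, which puts the libraries at 15.7 M to 23.7 M fragments (M, 1e6).

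All 8 members were among the 18113 genes that averaged 1 FPKM or more in both tables. JAZ9 passed in the mRNA table only through day 3, since its mean over the other libraries there was 0.833 FPKM. On day 1, 2 members were called higher, where 6.93% of all tested genes were. On day 2 the count was 6 members against 14.5% of tested genes, and on day 3 it was 6 members against 18.2%. No member was called lower on any day, while 2.46%, 11.1% and 25.9% of tested genes were on days 1, 2 and 3. Over all tested genes, the split of higher to lower calls moved with the scaling. It was 1256 to 446 on day 1 as deposited, 891 to 677 under median-ratio scaling and 964 to 765 under the deposited quantile normalization, and on day 3 it was 3290 to 4699, 4408 to 3488 and 3439 to 3742. The members' median ratios on day 1 were 0.68 (total RNA) and 0.72 (mRNA), against 0.23 and 0.17 over all tested genes. Day 2 medians were 1.16 and 1.22 for the members, against 0.11 and 0.06. Day 3 medians were 4.90 and 4.69, against -0.24 and -0.39. Between days 1 and 2, 3 members were called higher (JAZ11, JAZ12 and JAZ8) and 0 lower, where 4.3% and 5.0% of tested genes were. Between days 2 and 3, 5 members were called higher (JAZ9, JAZ11, JAZ10, JAZ12 and JAZ6) and 0 lower, where 7.38% and 15.1% of tested genes were. The members were chosen with results of these libraries known, so their counts are a description.

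**Figure D1:**
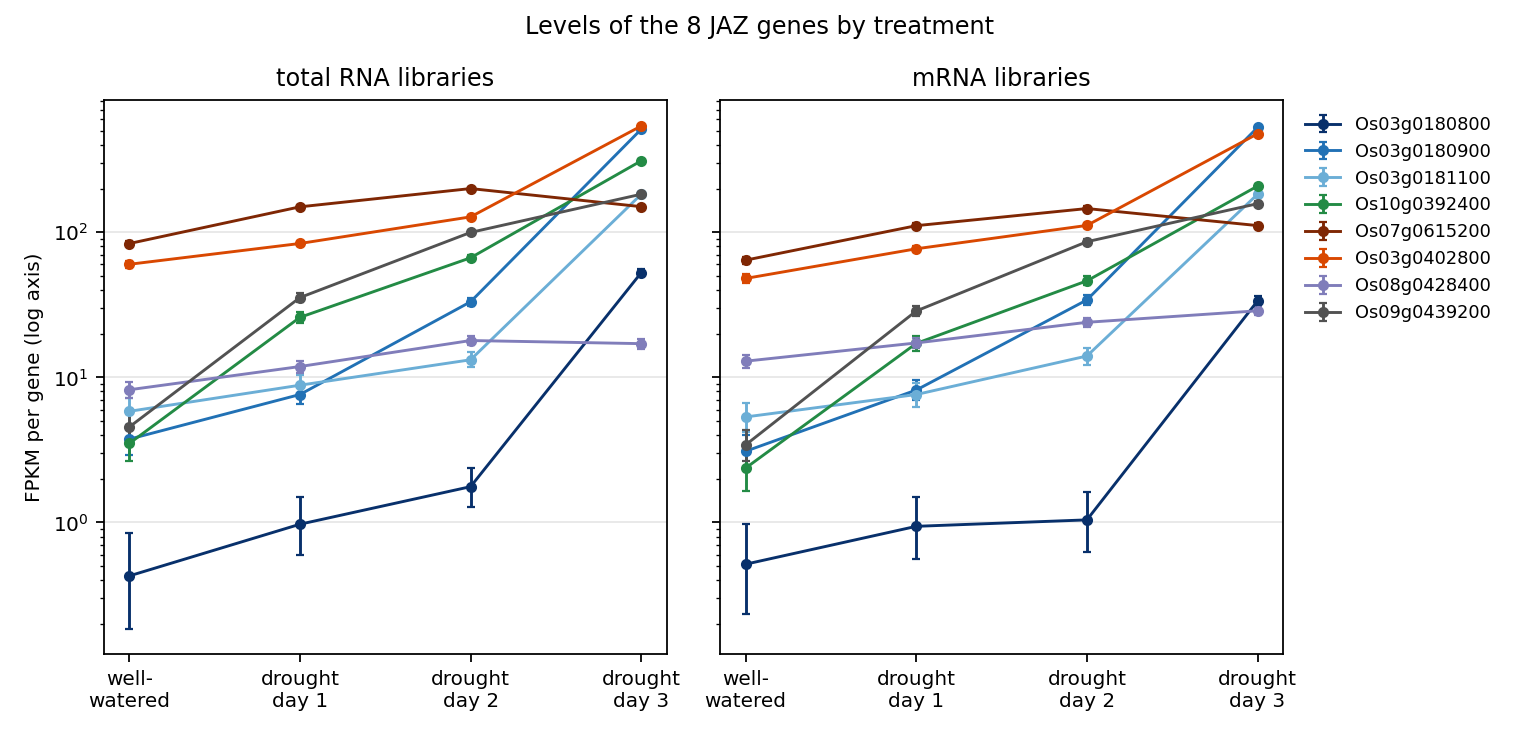
FPKM of each of the 8 JAZ genes (log axis) in the well-watered library and on drought days 1 to 3, in total RNA (left) and mRNA (right). Points are single libraries and bars are 95% Poisson limits of counting. JAZ6 (Os03g0402800) and JAZ7 (Os07g0615200) start highest, JAZ9 (Os03g0180800) starts below 1 FPKM, and 6 of the 8 lines end far above their start on day 3.

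The JAZ9, JAZ11 and JAZ10 genes stand next to each other within 17817 bases of chromosome 3, and all were higher on day 3. JAZ11 stood at 3.75 FPKM in watered total RNA and at 7.62, 33.2 and 513 FPKM after 1, 2 and 3 days. In mRNA it was at 3.10, 8.18, 34.2 and 527 FPKM. Each library of this gene was thus above the one before it, and most of its level was added between days 2 and 3. Its day 1 log2 ratios of 0.86 (total RNA) and 1.16 (mRNA) missed the size rule in total RNA. They were 2.85 and 3.10 a day later and 6.76 and 7.01 by day 3, where each pair gives total RNA and then mRNA. On day 3 this was a plain 137-fold difference in total RNA and 170-fold in mRNA, and only 57 of the tested genes had a larger ratio in both kinds by the smaller of their values.

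JAZ10 was at 5.83, 8.83, 13.2 and 183 FPKM in total RNA from well-watered to day 3. The mRNA values were 5.34, 7.61, 14.0 and 183 FPKM. The gene was called higher on day 2 with ratios of 1.06 and 1.25, a call close to the size rule that was lost under median-ratio scaling and with a pseudocount of 5, and on day 3 with 4.75 and 4.86. Its plain day 3 fold was 31.3 in total RNA and 34.2 in mRNA.

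JAZ9 was the least abundant member until day 2, with 0.428 FPKM in watered total RNA, 0.973 and 1.77 FPKM on days 1 and 2, and 52.6 FPKM on day 3. The mRNA values were 0.516, 0.941, 1.04 and 33.6 FPKM. The well-watered values rest on about 8 fragments in total RNA and 9 in mRNA, with limits of 0.185 to 0.844 and 0.236 to 0.979 FPKM, and they overlap the day 1 limits of 0.594 to 1.502 in total RNA and 0.558 to 1.49 in mRNA. No day 1 difference was therefore resolved at this depth, and the gene was called higher on day 3 alone, at 5.23 and 4.51. Over the step from day 2 to day 3 its ratios were 4.28 and 4.08, beside 3.91 and 3.91 for JAZ11 and 3.69 and 3.61 for JAZ10.

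JAZ12, the TIFY11-type member on chromosome 10, was higher from day 1. It was at 3.50, 25.9, 66.6 and 310.4 FPKM in total RNA from well-watered to day 3. In mRNA it was at 2.37, 17.1, 46.2 and 208 FPKM. The log2 ratios of days 1, 2 and 3 were 2.58 and 2.43, then 3.91 and 3.81, then 6.11 and 5.95. The day 3 fold was 88.6 in total RNA and 87.7 in mRNA.

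JAZ8, a TIFY10-type member, was the other gene called higher on day 1. Its total RNA values were 4.55, 35.5, 99.7 and 183 FPKM and its mRNA values 3.42, 28.7, 86.0 and 157 FPKM from well-watered to day 3. Its log2 ratios were 2.72 and 2.74, then 4.18 and 4.30, then 5.05 and 5.16. Unlike the other members called on day 3, JAZ8 added less than 2-fold between days 2 and 3, at 0.87 and 0.86. By day 2 it stood at 54.5% of its own day 3 level in total RNA and 54.7% in mRNA. JAZ6 stood at 23.7% and 23.4% by then, JAZ12 at 21.5% and 22.2%, JAZ10 at 7.24% and 7.68%, JAZ11 at 6.47% and 6.48%, and JAZ9 at 3.36% and 3.10%.

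JAZ6 and JAZ7, both of the TIFY10 type, were the most abundant members in watered leaves. From watered leaves to day 3, JAZ6 had 60.1, 83.6, 128 and 539 FPKM in total RNA. Its mRNA values were 48.0, 76.9, 111 and 477 FPKM, so that the largest step was again the last. The day 2 call (1.07 and 1.20) was lost under quantile normalization, and the day 3 ratios were 3.14 and 3.28. JAZ7 had 83.6, 149.6, 199.9 and 150.0 FPKM in total RNA. Its mRNA values were 64.2, 111, 146 and 111 FPKM. It was the member with its highest level on day 2 in both kinds, and its day 1 and day 3 levels were close to each other. Its log2 ratios were 0.83 and 0.78, then 1.25 and 1.17, then 0.84 and 0.78. The day 2 call was lost under quantile normalization, and the day 3 value passed the size rule under median-ratio scaling, where the mean over the kinds was 1.27.

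JAZ3, the TIFY6-type member, varied least over the days together with JAZ7. It had 8.21, 11.9, 17.9 and 17.1 FPKM in total RNA. In mRNA its values were 12.9, 17.3, 24.0 and 28.7 FPKM. The ratios were 0.48 and 0.39, 1.04 and 0.84, and 0.97 and 1.09 on days 1, 2 and 3. On days 2 and 3 the library kinds thus fell on different sides of the size rule, and the gene was not called. With a pseudocount of 0.1 and under both other scalings the day 3 value passed in both kinds.

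**Figure D2:**
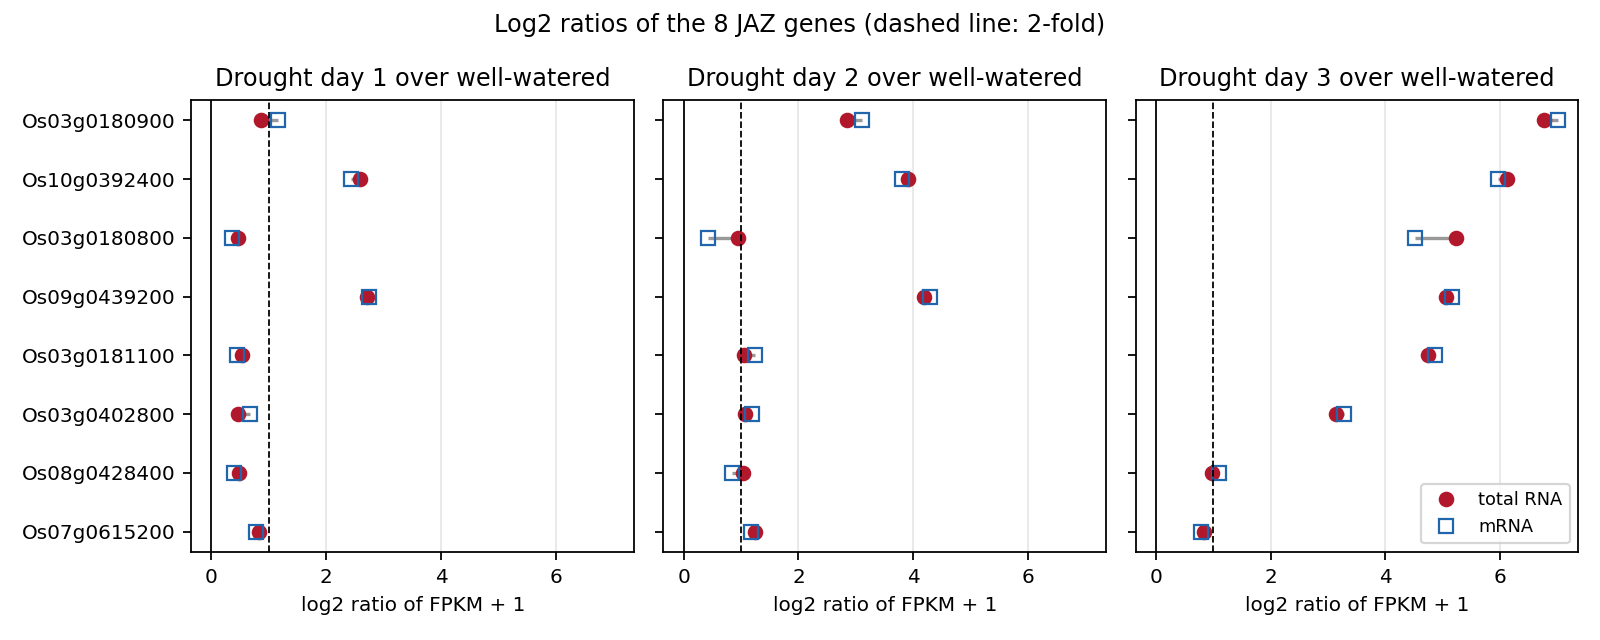
Log2 ratio of FPKM + 1 over the well-watered library of the same kind for each JAZ gene on drought days 1, 2 and 3, with total RNA as filled circles and mRNA as open squares. The dashed line marks 2-fold. On day 1 JAZ12 (Os10g0392400) and JAZ8 (Os09g0439200) lie beyond it in both kinds, and on day 3 all genes except JAZ3 (Os08g0428400) and JAZ7 (Os07g0615200) do.

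The make-up of the summed level of the 8 genes differed between treatments. In total RNA the 8 genes summed to 169.9 FPKM in watered leaves and to 324, 559.9 and 1947 FPKM after 1, 2 and 3 days. The mRNA sums were 139.9, 268, 462 and 1725 FPKM. On day 3 this was 11.5 times the watered sum in total RNA and 12.3 times in mRNA. The genes thus made up 0.287% of all FPKM on day 3 in total RNA, against 0.0225% in watered leaves, and 0.246% against 0.0195% in mRNA. JAZ6 and JAZ7 together held 35.4% of the sum on day 3 in total RNA and 34.1% in mRNA, against 84.5% and 80.2% in watered leaves. The 4 TIFY11-type genes held 54.3% and 55.1% on day 3, against 7.95% and 8.09% in watered leaves. JAZ11 alone held 26.3% and 30.6% on day 3, against 2.21% and 2.21%. These sums leave out genes recalled as JAZ that are not members, of which Os04g0653000 (JAZ1) and Os09g0401300 (JAZ4) had 62.0 and 44.3 FPKM in watered total RNA and 85.7 and 63.3 FPKM in mRNA. In a sum of 12 genes, chosen after the data were seen, which adds these, Os04g0395800 (JAZ5) and Os10g0391400 (JAZ13), the day 3 fold was 7.88 in total RNA and 7.08 in mRNA. JAZ6 and JAZ7 then held 31.6% and 28.7% on day 3, against 52.0% and 38.8% in watered leaves. The 4 TIFY11-type members, with Os10g0391400 not counted among them, held 48.6% and 46.5%, against 4.89% and 3.92%. FPKM are relative to each library, so a share does not give a number of molecules per cell, and in bulk leaf fewer cells of a type and less RNA per cell cannot be told apart.

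In watered leaves the order by level was JAZ7, JAZ6, JAZ3, JAZ10, JAZ8, JAZ11, JAZ12 and JAZ9 in both kinds. The counting limits of neighbours overlapped from JAZ10 to JAZ12, since in total RNA JAZ10 lay within 4.67 to 7.20 FPKM, JAZ8 within 3.68 to 5.57, JAZ11 within 2.94 to 4.72 and JAZ12 within 2.65 to 4.54. On day 3 JAZ6 was above JAZ11 in total RNA (530.2 to 549 against 503 to 522 FPKM), while JAZ11 was above JAZ6 in mRNA (517 to 538 against 467 to 486 FPKM), so their order depended on the library kind. JAZ8 (177 to 188 FPKM) and JAZ10 (176 to 189 FPKM) were not resolved on day 3 in total RNA. JAZ3 was the lowest member on day 3, below JAZ9, in both kinds.

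**Figure D3:**
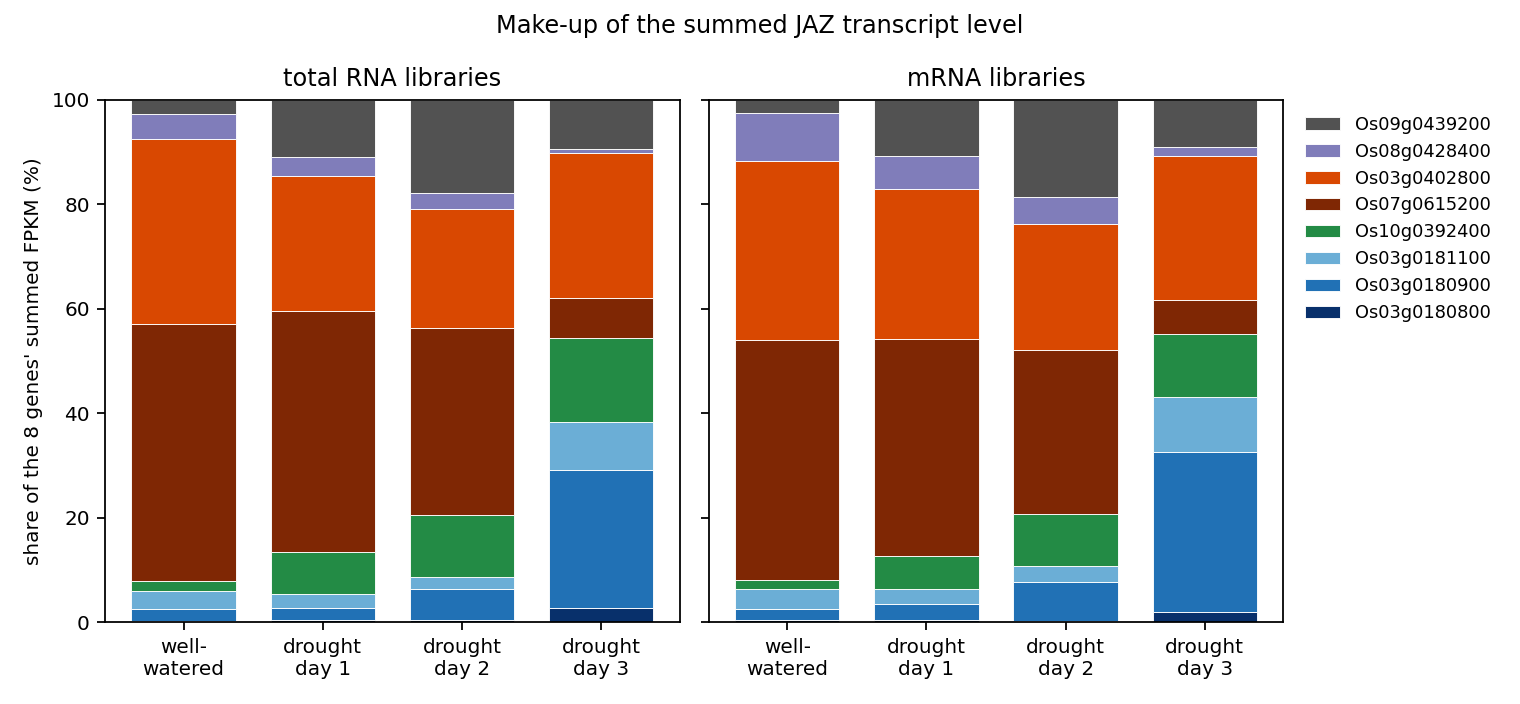
Share of the summed FPKM of the 8 JAZ genes held by each gene, from the well-watered library to drought day 3, in total RNA (left) and mRNA (right). JAZ7 (Os07g0615200) and JAZ6 (Os03g0402800) fill most of the bar in watered leaves, and the 4 TIFY11-type genes at the bottom of the bars fill 54.3% and 55.1% on day 3.

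In the chromosome 3 cluster 3685 bases lie between JAZ9 and JAZ11 and 10825 between JAZ11 and JAZ10, and no other gene of the tables lies between them. The next gene before the cluster, the glycosyl transferase gene Os03g0180700, had day 3 ratios of -0.69 and -0.90 and was not called on any day. The next gene after it, Os03g0181400, described as similar to ubiquitin thiolesterase, did not pass the expression filter and stayed at or below 0.611 FPKM. On chromosome 10 another TIFY gene, Os10g0391400 (recalled as JAZ13), lies near JAZ12 in a stretch of 39715 bases. It had 0.136, 0.633, 1.47 and 29.96 FPKM in total RNA. Its mRNA values were 0.123, 0.472, 2.26 and 34.1 FPKM, with day 3 ratios of 4.77 and 4.97. The gene between them, Os10g0391500, a conserved hypothetical protein gene, had day 3 ratios of -0.04 and -0.44, and its other neighbour Os10g0392500 had -0.80 and -1.93. The members are related in sequence, and the sources used here do not give how reads matching several genes were shared.

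The gene nearest to each member was found by the Euclidean distance over the 6 log2 ratios of FPKM + 1 (3 days, 2 kinds). It was sought among described genes outside the members. For JAZ10 this was Os10g0391400, the TIFY gene beside JAZ12, at a distance of 0.32. For JAZ11 it was the dehydrin gene Os02g0669100 at 0.60, with 2964 FPKM on day 3 against 30.6 in watered total RNA. For JAZ12 it was Os06g0356800, described as a xylanase inhibitor, at 0.25, and for JAZ8 Os12g0624200, described as similar to a K-exchanger, at 0.45. The kinase-related gene Os03g0839900 was nearest to JAZ7 at 0.17 and Os09g0527600, similar to a GTP-binding protein, to JAZ3 at 0.14. Os03g0710700, similar to a predicted protein, was nearest to JAZ6 at 0.32. The C2H2 zinc finger gene Os03g0437200 was nearest to JAZ9 at 0.45. Os03g0437200 stayed below 1 FPKM in both kinds until day 3 and passed the filter only through that day, as JAZ9 did in mRNA. This match is therefore not independent of the filter. Among the members themselves the closest pairs were JAZ3 and JAZ7 at 0.74, JAZ9 and JAZ10 at 1.02 and JAZ12 and JAZ8 at 1.48. Many non-members, other TIFY genes included, were nearer than these. Of them, 479 lay nearer to JAZ7 and 700 nearer to JAZ3 than the other of the pair. In the same way 29 lay nearer to JAZ10 and 7 nearer to JAZ9, and 27 lay nearer to JAZ12 and 67 nearer to JAZ8. The added 1 makes the ratios of low genes smaller than their plain folds, so a small distance does not mean equal folds. Os10g0391400 had 0.136 FPKM in watered total RNA and 29.96 on day 3, against 5.83 and 183 for JAZ10. In mRNA Os06g0356800 had 0.110 and 71.7 FPKM, against 2.37 and 208 for JAZ12. The ratios of a kind share 1 well-watered library, so these distances are a description.

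The files hold 7 other TIFY genes, of which 5 were tested. None was called on day 1, 1 was higher on day 2 and 3 were higher on day 3. Of all tested genes 6.93%, 14.5% and 18.2% were higher on those days. Of the 3, Os04g0395800 and Os10g0391400 passed the filter only through day 3, with means below 1 FPKM over the other libraries of each kind. Their day 3 calls are therefore not independent of the filter. The day 3 medians of the 5 tested genes were 1.09 and 1.06, beside -0.24 and -0.39 for all tested genes. Under quantile normalization 2 of the 5 were higher on day 3. The median of ratios averaged over the kinds was then 0.63, against 1.07 as deposited. Os04g0653000 (recalled as JAZ1), abundant in watered leaves, was at 133 FPKM on day 3 against 62.0 in watered total RNA and at 180 against 85.7 in mRNA, with ratios of 1.09 and 1.06. Os09g0401300 (recalled as JAZ4) was not called on any day, at 0.49 and 0.66 on day 3, and Os04g0395800 (recalled as JAZ5) was higher on day 3 at 2.93 and 2.65. The GATA factor gene Os03g0181600, described as ZIM-like, was at -0.75 and -0.88 on day 3 and was not called.

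The rest of the pathway did not share 1 direction. The receptor genes described as Coronatine-insensitive 1 were not higher on any day. Os01g0853400 had 0.95 and 0.77 on day 2, with 0.28 and 0.24 the day after, Os03g0265500 was at -0.60 and -0.50 on day 3, and Os05g0449500 was lower on day 3 at -1.35 and -1.37. Os05g0586200, described as a GH3 family protein of jasmonate signalling (recalled as JAR1, which joins jasmonate to isoleucine), was lower from day 2, at -1.41 and -1.59, with -1.18 and -1.91 a day later. The day 3 calls of both lower genes were lost under median-ratio scaling. Os09g0306700, described as Phytochrome and flowering time 1 (recalled as MED25, a Mediator subunit that MYC factors contact), was at 0.81 and -0.17 on day 3 and was not called. Os03g0214200, described as similar to Ninja-family protein 1, was at 39.8 FPKM on day 3 against 3.54 in watered total RNA and at 65.6 against 6.28 in mRNA. This family holds the adaptor between JAZ proteins and corepressors and also proteins of abscisic acid signalling.

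Of 3 tested genes on the list of MYC-type bHLH factors, 2 were higher on day 3, beside 18.2% of all tested genes. Neither of these 2 is described as a MYC factor, and both carry a general bHLH description. Os10g0575000, described as similar to MYC7E and recalled as MYC2, the main target of JAZ proteins, had day 3 ratios of 0.37 and 0.26 and was not called on any day. Os04g0301500 (recalled as RERJ1, a jasmonate-responsive bHLH gene) was higher on each day, at 1.91 and 1.95, 2.34 and 2.63, and 2.59 and 3.00. Os03g0741100 (recalled as bHLH148) was higher on day 3 at 4.20 and 2.93. Of 3 cytochrome P450 genes of the CYP94 list, which in rice and Arabidopsis includes enzymes that oxidize jasmonoyl-isoleucine, Os12g0150200 was at 30.3 FPKM on day 3 against 0.00898 in watered total RNA, with ratios of 4.95 and 5.03. In mRNA this gene was at 33.8 against 0.0676 FPKM. Its watered values lie near 0, so they set no plain fold. Os11g0151400 followed with 4.47 and 4.39, and Os05g0382500 was not called at 1.16 and 0.92. Of 19 tested genes on the jasmonate synthesis list, 5 were called higher on day 3 and 8 lower, which is 26.3% and 42.1% of the list, beside 18.2% and 25.9% of all tested genes. Their medians were -0.04 and -0.43, and the median of the genes' ratios averaged over the kinds, -0.22, turned positive under both other scalings. Of the tested genes placed by locus, the allene oxide cyclase gene Os03g0438100 was lower at -1.99 and -1.32. The allene oxide synthase gene Os03g0767000 was lower at -1.06 and -1.22, and Os08g0459600 (recalled as OPR7) was not called at 0.95 and 0.88. Other genes of the list were placed by description, lipoxygenases among them. Of the lipoxygenase genes, Os08g0509100, picked for its large day 3 ratio, was higher at 4.10 and 3.70. Os03g0700700 and Os08g0508800 were also called higher. Os02g0194700, the lipoxygenase gene with the highest watered level, was lower at -3.19 and -3.21. It had 115 FPKM on day 3 against 1053 in watered total RNA. Os05g0304600, Os12g0559200 and Os12g0559934 were also called lower. Os08g0508800 and the lower lipoxygenase genes were named after their values were seen.

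Of 11 tested genes on the jasmonate-responsive list, the counts of higher and lower genes were 6 and 2 after 1 day, 8 and 2 after 2 days, and 7 and 3 after 3 days. The shares of all tested genes were 6.93% and 2.46%, 14.5% and 11.1%, and 18.2% and 25.9%, so that the 27.3% of the list that was lower on day 3 is near the share of all genes. Os11g0684000 (recalled as JAmyb, a MYB gene) was at 259 FPKM on day 3 against 5.26 in watered total RNA and at 172 against 3.39 in mRNA, with a course of 2.35 and 2.48, 4.18 and 4.24, and 5.38 and 5.30. SalT (Os01g0348900), a lectin-like salt-induced protein, was at 4223 FPKM on day 3 against 6.12 in watered total RNA, although this gene is also known to respond to salt and abscisic acid. The Bowman-Birk proteinase inhibitor genes Os01g0124100 and Os01g0124200, picked for their large day 3 ratios, were at 4.98 and 4.51 and at 4.71 and 5.24. Os01g0123900, the Bowman-Birk gene of the list with the highest watered level, had 65.5 FPKM on day 3 against 128 in watered total RNA and was not called, at -0.96 and -0.64. The lower genes on day 3 were Os10g0132300, Os12g0144200 and Os12g0199000, all described as similar to jasmonate-induced protein, of which Os10g0132300 had been higher on day 2. These and Os01g0123900 were named after their values were seen.

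**Figure D4:**
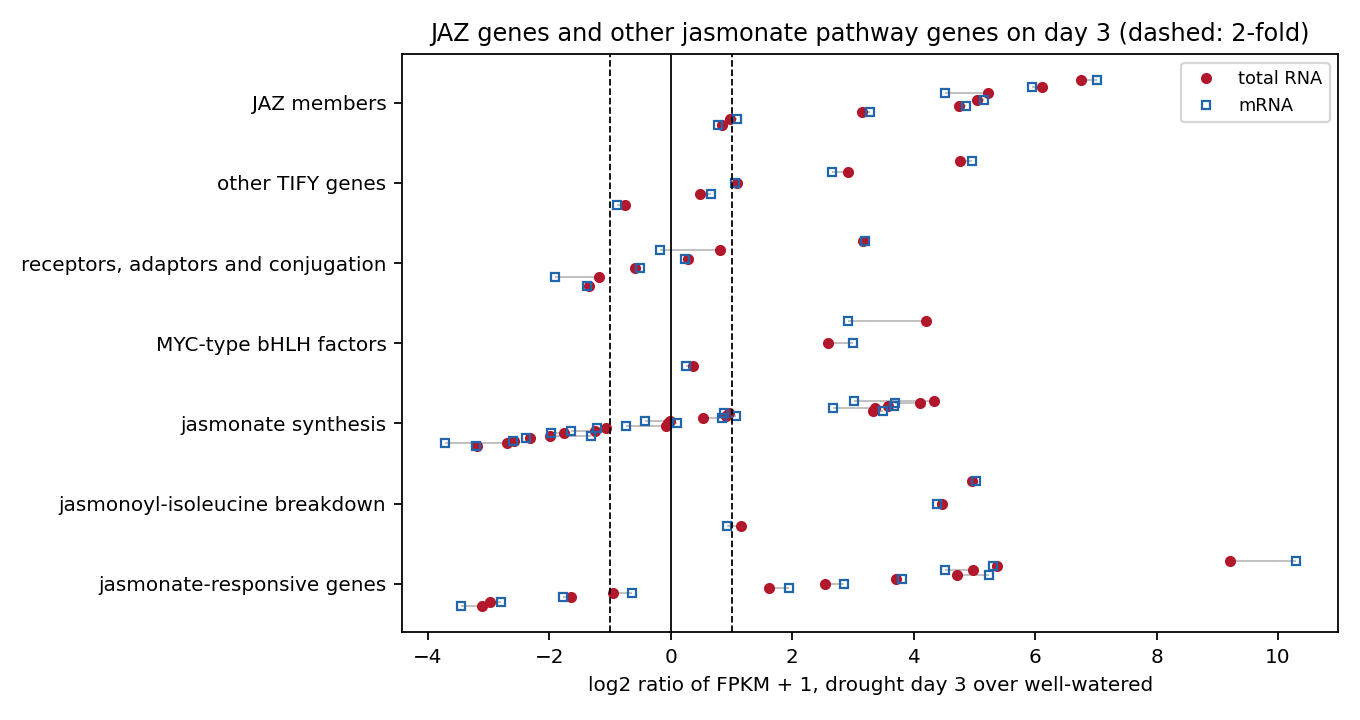
Day 3 log2 ratio of FPKM + 1 over the well-watered library for the 8 JAZ genes and for the tested genes of each jasmonate pathway list, 1 gene per line, with total RNA as filled circles and mRNA as open squares. Dashed lines mark 2-fold. JAZ genes lie between 0.78 and 7.01, while synthesis genes lie on both sides of 0.

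The tissue label was checked against marker genes. The leaf markers, a Rubisco small subunit gene (Os12g0274700) and a chlorophyll a/b-binding protein gene (Os01g0600900), summed to 10039 FPKM in watered total RNA and to 4309, 933 and 32.4 FPKM over the drought days, so these leaf transcripts were low in the same libraries in which most members were high. In mRNA the sums were 11820, 5589, 1025 and 31.2 FPKM. The root marker found, Os02g0662100, was in the total RNA table alone, at 0.0701 FPKM in watered leaves and 0.0881 FPKM on day 1 and listed at 0 on days 2 and 3. The 7 genes described as glutelins, an endosperm storage protein, summed to 34.5 FPKM on day 3 against 8.17 in watered total RNA and to 101 against 12.8 in mRNA, with 1 to 3 of them at 0 in each library and most of the day 3 sum in Os03g0188500. Their part in the JAZ values was not tested.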

How the data were processed

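Libraries of total RNA and of mRNA from leaves were made with strand-specific kits, per the labels' protocols. Per the submitters' processing notes, the tools were StringTie 1.3.3b, HISAT2 2.0.5 with Bowtie2 2.2.6, FastQC 0.10.0 and Trimmomatic 0.32, on IRGSP-1.0, with no role or strand setting given. The authors deposited FPKM per transcript and library, and log2 values that, from the values, are quantile-normalized log2(FPKM + 1) (after sorting, 98.9% of entries in mRNA libraries and 100% in total RNA lie within 0.01 of each other). The deposited fold changes, which are signed scores, the mean levels and the other transcript annotation columns were not used in comparisons. FPKM were summed per gene, and genes averaging 1 FPKM or more in both tables were kept.

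The size rule, a log2 ratio of FPKM + 1 of at least 1 or at most -1 in both kinds, was checked on simulated data. The simulated noise was drawn separately for each kind, with its size taken from the day 1 difference between the kinds. Variation between plants was not simulated, so the check does not cover it. The tools were scipy 1.17.1, numpy 2.4.6 and pandas 2.3.3 under Python 3.11.15. Members and lists were chosen with earlier results of these data known. Symbols beside identifiers are recalled, and 1 of the identifiers in the files matched the RefSeq table. Genes named are all members, listed genes placed by locus, up to 3 per list placed by description, the nearest gene per member and cluster neighbours. Those placed by description were the ones with the largest absolute mean day 3 ratio in their list. Their day 3 ratios therefore do not stand for the list. Genes whose wording matched a list by accident (6 potassium channels among TIFY genes, 2 in synthesis, 1 among glutelins) were removed after the values had been seen. Some genes this rule takes are not printed. The step taken as 1 fragment is the commonest product of FPKM and length among the lowest 30% of values, and 4.13% to 6.39% of those values lie within 1% of it. Alternatives were other pseudocounts, filters and scalings, each kind alone and the most abundant transcript of each gene.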

Additional observations from a re-analysis of the deposited data

How the results depend on the processing

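No paired analysis was possible because each treatment and library kind holds 1 library and the comparisons carry no test. No member was called lower under any alternative run. No member's ratio over the well-watered library, averaged over the kinds used, was below 0 in any of these runs. No alternative was run for the steps between drought days. Members called higher numbered 2 or 3 on day 1, 4 to 7 on day 2 (4 under quantile normalization) and 6 to 8 on day 3 (8 under median-ratio scaling). Median-ratio scaling moved the median of all genes on day 3 to 0.07 and 0.10, against -0.24 and -0.39 as deposited. Over all tested genes, a pseudocount of 5 gave 648 higher and 239 lower on day 1, 1643 and 1187 on day 2, and 2450 lower on day 3. A mean of at least 5 FPKM leaves 12221 genes, of which 293 (2.40%, against 2.46%) were lower on day 1 and 2918 (23.9%, against 25.9%) on day 3, so these counts follow the smaller number tested. Lower genes on day 1 numbered 677 with median ratios and 765 after quantile normalization, against 446. In the receptor and conjugation list the 2 lower genes became 0 under median-ratio scaling and the median of -0.14 turned to 0.31. In the synthesis list 3 of the 13 genes left with a mean of at least 5 FPKM were higher, against 5 of 19, 5 were lower with a pseudocount of 5 and under median-ratio scaling, and the median of -0.22 (mean of the kinds) turned to 0.0234 without a filter, to 0.13 with median ratios and to 0.0459 with quantile normalization. In the jasmonate-responsive list 1 of the 9 genes left with a mean of at least 5 FPKM was lower, against 3 of 11, and the median of 2.70 turned to -0.00326 without a filter, where untested low genes enter. The cause of the other shifts was not tested. Counting error limits the values of JAZ9 before day 3, and the spread between plants is unknown.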

Other observations

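The transcript forms of JAZ6 differed between the library kinds. Its main transcript, Os03t0402800-01, spans 2309 bases for a length of 1174, while Os03t0402800-02 has a length equal to its span of 1291 bases and so holds no intron. The form without an intron was at 18.8 FPKM on day 3 against 4.08 FPKM in watered total RNA, and at 8.91 against 0.869 FPKM in mRNA. It held 3.49% of the gene's level on day 3 in total RNA and 6.78% in watered leaves, and 1.87% and 1.81% in mRNA. For JAZ10 the shorter form Os03t0181100-02 held 96.5% to 99.0% in all libraries, and for JAZ3 the form Os08t0428400-01 held 97.1% to 99.4%.

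Between library kinds, levels were set across tables that were normalized separately. JAZ3 was higher in mRNA than in total RNA in all 4 treatments, with log2 ratios of 0.40 to 0.72, while the median of all tested genes lay between 0.05 and 0.14. It lay above the upper quartile of all tested genes in watered leaves and on day 3 but below it on days 1 and 2 (0.50 against 0.54 and 0.40 against 0.51). JAZ7 lay at -0.38 to -0.45 and JAZ12 at -0.42 to -0.58 in all treatments, below the lower quartile of all tested genes in each. On day 3 JAZ9 was at -0.63.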
